A study of Mus musculus with 6 samples.

Results

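Genes of ductal secretion and ion transport were followed in colonies grown from adult mouse pancreas. The 7 members, Car2, Slc4a4, Aqp5, Clca3b, Spp1, Muc1 and Clu, were matched by symbol among 11164 genes with a value. Cells with high surface CD133 and low CD71, a fraction enriched for progenitors, were sorted from pancreata of C57Bl/6 mice aged 2 to 4 months and infected overnight with lentiviral shRNA. They were then grown under puromycin for 3 weeks as primary colonies in semi-solid medium that held Matrigel, serum, conditioned medium and the additives activin B, RSPO1, exendin-4 and nicotinamide. The shGlis3 colonies carried a pool of 5 shRNA clones against the transcription factor gene Glis3, the shCD133 colonies a pool of 5 against CD133, which is encoded by Prom1, and the shControl colonies 1 shRNA with no mammalian target. Poly(A) RNA of whole colonies was sequenced in 2 libraries per group, numbered 1 and 3. The study, by its title, addresses self-renewal of such cells through Glis3, CD133 and Wnt signalling.

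Pancreatic duct cells add bicarbonate, chloride and water to the juice that carries the acinar enzymes. Carbonic anhydrase makes bicarbonate inside the cell, a sodium bicarbonate cotransporter in the basolateral membrane brings more in, chloride channels and exchangers at the apical side release it, and aquaporins let water follow. The same cells coat their lumen with mucin and secrete glycoproteins such as osteopontin and clusterin. In RNA from whole colonies, fewer cells of a type and less RNA per cell cannot be told apart.

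Genes of duct identity were nearly all measured. Of 25 such genes, 24 had a value, and Cftr, the apical chloride and bicarbonate channel, was the 1 without. In shGlis3, shCD133 and shControl libraries alike, Krt19 (a duct keratin) lay between 432 and 825 RPKM (reads scaled to transcript length and library size) and Epcam, which other epithelia also express, between 327 and 416 RPKM. Sox9 lay between 31.4 and 43.8 RPKM, and Pkhd1 (a ciliary protein of duct epithelium) was the lowest of the 24, at 4.92 to 8.53 RPKM. Marker lists of other cell types were sparse. Of 15 acinar markers 2 had a value, Reg1 and, at 0.49 to 1.06 RPKM, Cela1. Their sum was 49.3 and 109 RPKM in shGlis3, 383 and 389 RPKM in shCD133 and 197 and 305 RPKM in shControl libraries. Of 15 endocrine markers 8 had a value, with sums of 45.5 and 54.9, 50.3 and 55.5, and 29.5 and 38.6 RPKM in the same order of groups. Most of each sum was Cpe, at 33.9 and 32.5, 46.3 and 42.6, and 20.6 and 23.8 RPKM. Of the hormone genes, Sst had 8.15 and 4.22, 1.43 and 0.55, and 2.56 and 5.89 RPKM. Gcg (0.1 to 3.29 RPKM) and Ppy (0 to 1.03 RPKM) were low throughout. Of 12 mesenchymal markers Fn1 alone had a value (53.5 and 56.3, 84.7 and 87.8, 112 and 112 RPKM), and of 8 endothelial markers Esam alone (1.37 to 1.59 RPKM). Of 7 Schwann and neural markers Ncam1 and Cnp had a value, with sums of 19.6 to 21.3 RPKM. Ncam1 had 1.79 and 1.22, 3.30 and 3.75, and 3.89 and 3.75 RPKM, and Cnp 15.8 to 19.5 RPKM. Of 9 immune markers Cd14 (293 to 422 RPKM) and Cd68 (5.12 to 6.39 RPKM) had a value. The part of such cells in the results that follow was not tested.

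The estimated depths of the libraries were similar. Steps in the low values place them between 25.8 and 29.2 megareads, an estimate that rests on assumed transcript lengths. RPKM sums, which are already scaled to library size and so do not measure depth, lay between 267688 and 279122. Glis3 had 13.3 and 12.0 RPKM in shGlis3 libraries, against 26.1 and 24.2 RPKM in shControl libraries. Prom1 had 88.0 and 96.0 RPKM in shCD133 libraries, against 191 and 203 RPKM in shControl libraries. No label tells whether libraries 1 and 3 of a group stem from different mice or cultures, so each p-value reflects a spread that may be technical. Both knockdowns are compared with the same 2 shControl libraries.

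Levels were tested as log2(RPKM + 1) with limma over 10829 genes, and a gene is said to have risen or fallen where its Benjamini-Hochberg adjusted p was under 0.05. In shGlis3 against shControl colonies 1 of 7 members passed, with 0 higher and Slc4a4 lower, where 12.9% of all genes tested passed (8.39% higher and 4.53% lower). In shCD133 against shControl colonies 4 of 7 passed, with Car2 and Clca3b higher and Aqp5 and Spp1 lower, where 11.8% of all genes passed (8.16% higher and 3.64% lower). Of these, Clca3b reached the minimum level for testing only through the shCD133 libraries in which it is high, so its call adds nothing to that comparison of shares. Between the knockdowns, in shGlis3 against shCD133 colonies, 3 of 7 passed, with Aqp5 higher and Car2 and Slc4a4 lower, where 4.06% of all genes passed (1.61% higher and 2.46% lower). The share of all genes with an unadjusted p under 0.05 was 30.5%, 31.1% and 21.9% in these comparisons. The median log2 fold change of the 7 was -0.03, 0.10 and -0.22, beside medians of 0.04, 0.04 and 0.002 over all genes tested. Muc1 and Clu passed in none of the 3. The members, and the lists further below, were chosen with earlier results of these data known. Their counts beside the shares of all genes are therefore a description and not a test.

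Groups did not overlap for 4 of the 7 in shGlis3 against shControl colonies (2 higher and 2 lower, beside 38.5% and 21.1% of all genes, 59.6% together). They did not overlap for 5 in shCD133 against shControl colonies (3 higher and 2 lower, beside 40.3% and 22.1%, 62.4% together). For shGlis3 against shCD133 colonies there were also 5 (1 higher and 4 lower, beside 27.9% and 26.8%, 54.7% together). Clca3b is among the members counted in each comparison. As it was tested only through the shCD133 libraries in which it is high, it adds nothing to the comparisons of shares that involve shCD133 colonies.

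**Figure D1:**
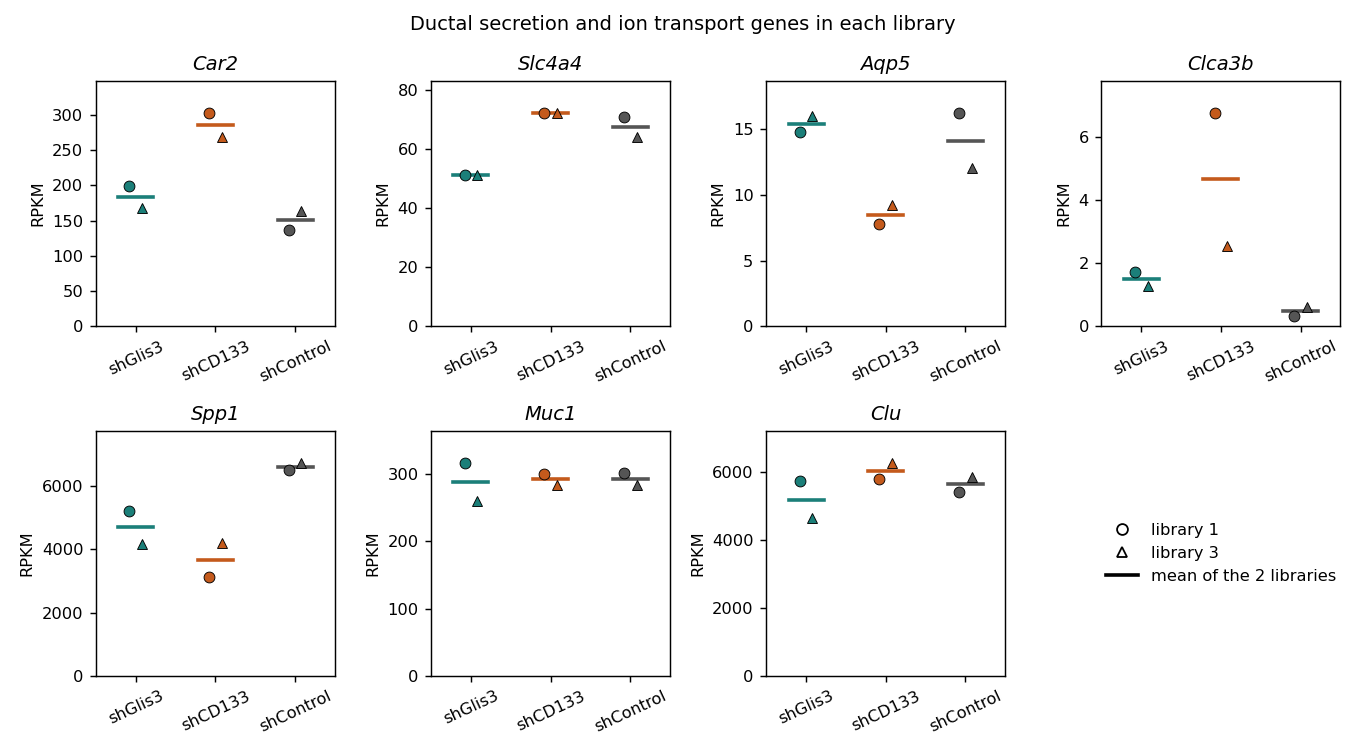
RPKM (vertical axis, from 0) of the 7 genes in each library of the shGlis3, shCD133 and shControl groups, with circles for library 1, triangles for library 3 and a line at the mean of both. Car2 sits at 269 and 303 RPKM in shCD133 libraries, above all 4 other libraries, while Slc4a4 sits at 51.1 RPKM in both shGlis3 libraries, below all 4 other libraries.

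Car2, the cytosolic carbonic anhydrase that makes bicarbonate for secretion, was higher in CD133 knockdown. It had 303 and 269 RPKM in shCD133 libraries and 200 and 168 RPKM in shGlis3 libraries, against 137 and 164 RPKM in shControl libraries. Both shCD133 libraries lay above every other library, and the shGlis3 libraries lay between the other groups, just above the higher shControl library. Means were 286 ± 24.0 RPKM in shCD133 and 150 ± 18.7 RPKM in shControl colonies (SD, n = 2 each), a 1.90-fold difference and a log2 fold change of 0.93 (95% interval 0.64 to 1.21, limma adjusted p = 0.0138). The log2 fold change in shGlis3 against shControl colonies was 0.29 (0.005 to 0.57, adjusted p = 0.158), which did not pass. The knockdowns differed from each other, with a log2 fold change of -0.64 in shGlis3 against shCD133 colonies (-0.92 to -0.35, adjusted p = 0.0417). The transcript is annotated on chromosome 3 (14886273 to 14900770, plus strand, GRCm38, ENSMUSG00000027562.12), and none of its exons overlaps another gene.

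Slc4a4 encodes the electrogenic sodium bicarbonate cotransporter NBCe1, which loads duct cells with bicarbonate from the blood side. It had 51.09 and 51.08 RPKM in shGlis3 libraries, 72.15 and 72.05 RPKM in shCD133 libraries and 70.91 and 64.04 RPKM in shControl libraries. The shGlis3 libraries were the 2 lowest of the 6 and did not overlap either other group. The mean in shGlis3 colonies was 75.7% of that in shControl colonies, a log2 fold change of -0.39 (-0.54 to -0.25, adjusted p = 0.0133), and 70.9% of that in shCD133 colonies, a log2 fold change of -0.49 (-0.64 to -0.34, adjusted p = 0.0173). In shCD133 against shControl colonies the log2 fold change was 0.10 (-0.05 to 0.24, adjusted p = 0.34). Against shControl colonies Car2 thus passed with the CD133 pool and Slc4a4 with the Glis3 pool, and both differed between the pools.

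Slc4a4 (ENSMUSG00000060961.14, chromosome 5, 88886818 to 89239653, plus strand) has more than 1 start in RefSeq, an upstream one used for the form known from pancreas and an inner one used for the form known from kidney. The RPKM gives 1 value for the gene and does not tell the starts apart. The bases before the inner start, which lie inside the gene, with no annotated exon, at chr5:89027716-89027965 of GRCm38.p6 (plus strand), are shown to mark where it is, with capitals on a CCAAT box, written ATTGG on this strand.
Slc4a4: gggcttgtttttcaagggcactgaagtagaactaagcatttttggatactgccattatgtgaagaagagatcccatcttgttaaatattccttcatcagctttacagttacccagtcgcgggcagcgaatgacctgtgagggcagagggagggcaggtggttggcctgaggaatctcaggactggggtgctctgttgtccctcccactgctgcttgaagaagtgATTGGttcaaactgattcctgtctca

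Aqp5, an apical water channel of exocrine glands, was lower in CD133 knockdown and not in Glis3 knockdown. It had 7.75 and 9.26 RPKM in shCD133 libraries and 14.8 and 16.0 RPKM in shGlis3 libraries, against 16.3 and 12.0 RPKM in shControl libraries. Both shCD133 libraries lay below all others, while the shGlis3 libraries lay inside the range of the shControl libraries. The log2 fold change in shCD133 against shControl colonies was -0.66 (-0.995 to -0.33, adjusted p = 0.0317), a fall to 60.1% of the shControl mean. The shGlis3 mean was 1.81 times the shCD133 mean, a log2 fold change of 0.79 (0.46 to 1.12, adjusted p = 0.038), and in shGlis3 against shControl colonies the log2 fold change was 0.13 (-0.21 to 0.46, adjusted p = 0.578). The gene lies on chromosome 15 (99590782 to 99594829, plus strand, ENSMUSG00000044217.17).

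Clca3b belongs to the family of calcium-activated chloride channel regulators, secreted or membrane-bound glycoproteins that modulate chloride currents. It was the least abundant member and had the largest fold change of the 7 in shCD133 against shControl colonies. It had 6.77 and 2.55 RPKM in shCD133 libraries, 1.72 and 1.26 RPKM in shGlis3 libraries and 0.33 and 0.61 RPKM in shControl libraries. The groups did not overlap in any comparison, but the shCD133 libraries differed from each other more than the other 4 did. With the longest transcript's length and the estimated depths, the shCD133 values stand for about 587 and 234 reads and the shControl values for about 30 and 60 reads. The shCD133 mean was 9.91 times the shControl mean, and the log2 fold change, which the pseudocount of 1 shrinks at these levels, was 1.84 (1.05 to 2.64, adjusted p = 0.0233). For shGlis3 against shControl colonies it was 0.76 (-0.04 to 1.56, adjusted p = 0.181) and in shGlis3 against shCD133 colonies -1.08 (-1.88 to -0.28, adjusted p = 0.129), neither of which passed. Clca3b passed the minimum mean of 1 RPKM through the shCD133 libraries, since the other 4 libraries averaged 0.98 RPKM, so its difference from shControl colonies was in part a condition of being tested. Of the windows of 50 bases in its transcript, 5.98% are shared with Clca3a1 or Clca3a2, so reads may be split among these paralogs.

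Clca3b (ENSMUSG00000037033.9, chromosome 3, 144822623 to 144849357, minus strand) is shown with the bases before its annotated start, at chr3:144849358-144849552 of GRCm38.p6 (minus strand), because its level differed most between groups. None of the motifs searched is in these letters, so there are no capitals.
Clca3b: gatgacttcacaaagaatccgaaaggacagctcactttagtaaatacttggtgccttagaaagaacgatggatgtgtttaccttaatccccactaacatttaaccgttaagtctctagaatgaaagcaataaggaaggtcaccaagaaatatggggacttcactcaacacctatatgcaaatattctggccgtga

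Spp1 encodes osteopontin, a secreted phosphoprotein that binds integrins and CD44 and marks pancreatic ducts. It was the most abundant of the 11164 genes in both shControl libraries and second to Clu in each knockdown library. It had 3127 and 4202 RPKM in shCD133 libraries, 5212 and 4168 RPKM in shGlis3 libraries and 6490 and 6733 RPKM in shControl libraries. All 4 knockdown libraries lay below both shControl libraries, and the knockdown groups overlapped each other. The shCD133 mean of 3665 ± 760 RPKM was 55.4% of the shControl mean of 6611 ± 172 RPKM (SD, n = 2 each), with a log2 fold change of -0.87 (-1.29 to -0.45, adjusted p = 0.029). The log2 fold change in shGlis3 against shControl colonies was -0.50 (-0.92 to -0.09), at 70.9% of the shControl mean, and did not pass (adjusted p = 0.108). The difference between the knockdowns was 0.36 in shGlis3 against shCD133 colonies (-0.06 to 0.78, adjusted p = 0.283). Spp1 alone held 1.17% and 1.56% of the RPKM sum in shCD133 libraries, 1.90% and 1.56% in shGlis3 libraries and 2.41% in each shControl library. Of the windows of 50 bases in its transcript, 9.05% are shared with Gm42793, whose exons overlap those of Spp1 on the same strand.

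Muc1, a transmembrane mucin of the duct lumen, and Clu, which encodes the secreted chaperone clusterin, passed in neither knockdown against shControl colonies. Muc1 had 317 and 259 RPKM in shGlis3 libraries, 300 and 284 RPKM in shCD133 libraries and 302 and 284 RPKM in shControl libraries. The groups overlapped in every comparison. Its log2 fold change was -0.03 in shGlis3 (-0.27 to 0.21, adjusted p = 0.868) and -0.004 in shCD133 (-0.25 to 0.24, adjusted p = 0.982), both against shControl colonies, so changes beyond about 0.27 in either direction lay outside both intervals. Clu had 5727 and 4643 RPKM in shGlis3 libraries, 5788 and 6274 RPKM in shCD133 libraries and 5420 and 5854 RPKM in shControl libraries. The shCD133 and shControl libraries overlapped, and the spread between the shGlis3 libraries reached past both shControl libraries at one end. Its log2 fold change was -0.13 in shGlis3 (-0.45 to 0.20, adjusted p = 0.568) and 0.10 in shCD133 (-0.23 to 0.42, adjusted p = 0.673), both against shControl colonies. Between shGlis3 and shCD133 colonies it was -0.22 (-0.55 to 0.10, adjusted p = 0.386), with the groups apart. 

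The promoters of Spp1 and Muc1 are set side by side because one of these luminal glycoproteins fell in CD133 knockdown and the other was not shown to change. Spp1 (ENSMUSG00000029304.14, chromosome 5, 104435118 to 104441050, plus strand) and Muc1 (ENSMUSG00000042784.9, chromosome 3, 89229057 to 89233381, plus strand) are shown by the 250 bases before their first RefSeq start, at chr5:104434861-104435110 and chr3:89228806-89229055 of GRCm38.p6, both on the plus strand. Capitals mark the letters TATAAA of a TATA box, the letters ATTGG of a CCAAT box on the other strand and, in Spp1 alone, the letters AACCACA of a Runx motif.
Spp1: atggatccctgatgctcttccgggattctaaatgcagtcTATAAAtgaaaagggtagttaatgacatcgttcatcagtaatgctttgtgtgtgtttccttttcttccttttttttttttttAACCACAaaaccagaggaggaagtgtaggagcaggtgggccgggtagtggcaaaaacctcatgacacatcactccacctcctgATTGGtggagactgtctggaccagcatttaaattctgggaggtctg
Muc1: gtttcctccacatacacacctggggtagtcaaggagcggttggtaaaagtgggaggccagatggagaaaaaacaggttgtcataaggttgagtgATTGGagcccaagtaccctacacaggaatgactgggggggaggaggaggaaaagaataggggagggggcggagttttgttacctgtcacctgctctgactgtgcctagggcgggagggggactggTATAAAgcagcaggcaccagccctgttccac
Among 32851 RefSeq promoter windows of 250 bases, 12.4% hold TATAAA, 33.8% CCAAT and 4.4% AACCACA, counted on both strands. A TCF/LEF motif (ATCAAAG, in 3.21% of windows), a Gli motif (GACCACCCA, in 0.225%) and a Glis motif (TGGGGGGT, in 1.36%) are in none of the 7 windows that RefSeq gives for 5 of the members, Slc4a4, Aqp5, Clca3b, Spp1 and Muc1. Motifs this rare would seldom be found in 7 windows, so their absence says little. In the Muc1 window TATAAA lies near the start site, while in the Spp1 window it lies toward the far end. Whether any of these motifs bears on the levels of the genes was not tested.

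**Figure D2:**
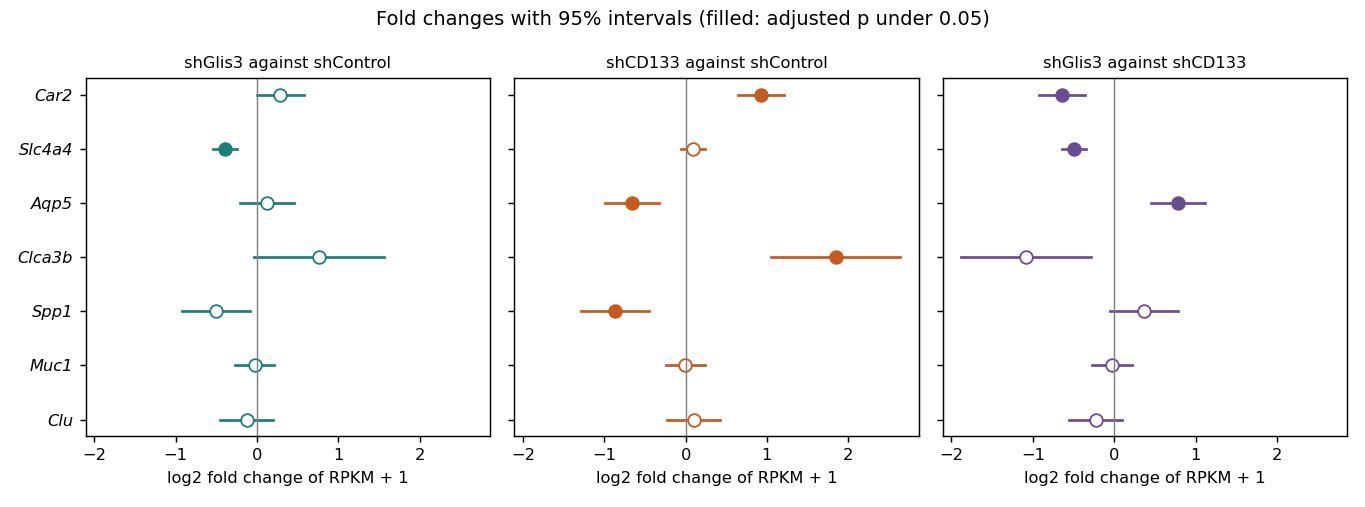
Log2 fold change of RPKM + 1 (horizontal axis) with its 95% interval for each member in the 3 comparisons, with filled points where the adjusted p was under 0.05. Slc4a4 is the 1 filled point in shGlis3 against shControl colonies, and Car2, Aqp5, Clca3b and Spp1 are filled in shCD133 against shControl colonies.

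Leaving out single libraries bore on these calls. Without shControl library 1 or 3 no gene of the 10829 passed in shCD133 against shControl colonies, though 2444 and 2672 had an unadjusted limma p under 0.05, and without shCD133 library 1 there were 24. The log2 fold changes of the 4 members called there kept their direction without each library in turn. Without shControl library 1, without shControl library 3 and without shCD133 library 1, that of Car2 was 0.80 (adjusted p = 0.0759), 1.05 (adjusted p = 0.0668) and 0.84 (adjusted p = 0.091). That of Spp1 was -0.89 (adjusted p = 0.123), -0.84 (adjusted p = 0.119) and -0.65 (adjusted p = 0.146), that of Aqp5 -0.46 (adjusted p = 0.121), -0.86 (adjusted p = 0.0668) and -0.55 (adjusted p = 0.168), and that of Clca3b 1.71 (adjusted p = 0.132), 1.98 (adjusted p = 0.0991) and 1.28 (adjusted p = 0.0618). Without shCD133 library 3 Aqp5 stood at -0.78 (adjusted p = 0.0552), while Car2, Spp1 and Clca3b passed, Clca3b at 2.41. The fall of Slc4a4 in shGlis3 against shControl colonies was -0.32 without shControl library 1 (adjusted p = 0.0747) and -0.39 without shGlis3 library 3 (adjusted p = 0.0517), and passed without each of the others. In shGlis3 against shCD133 colonies, Slc4a4 was -0.49 without shGlis3 library 3 (adjusted p = 0.0642), without shCD133 library 1 (adjusted p = 0.1001) and without shCD133 library 3 (adjusted p = 0.0776). There Car2 passed only without shGlis3 library 1 and Aqp5 likewise, with log2 fold changes between -0.76 and -0.51 for Car2 and between 0.67 and 0.90 for Aqp5 over the 6 libraries left out.

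Transporters around the members were read from a list of 45 ion transport genes that includes Slc4a4, of which 35 had a value and 33 were tested. In shCD133 against shControl colonies there were 9 rises and 0 falls (median log2 fold change 0.09), and the other 24 did not pass, beside 8.16% higher and 3.64% lower of all genes tested. Slc4a11, a borate transporter homologue of the bicarbonate transporter family that carries protons, had 22.7 and 19.3 RPKM in shCD133 libraries, against 11.2 and 10.01 RPKM in shControl libraries, and rose by 0.92 (adjusted p = 0.0143). Ano9 (a TMEM16 family protein) rose by 0.64, Clcn2 (a chloride channel) by 0.46 and Slc9a3r1 (a scaffold that anchors apical transporters) by 0.45. Ano1, the calcium-activated chloride channel of secretory epithelia, named here after its values were seen, had 162 and 131 RPKM in shCD133 libraries, against 96.1 and 103 RPKM in shControl libraries, and rose by 0.54 (adjusted p = 0.0279). The count of 9 rises was 6 with median centring, 0 without shControl library 1 or 3 or without shCD133 library 1, and 5 without shCD133 library 3.

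In shGlis3 against shControl colonies the same list had 4 rises and 4 falls (median 0.07), and 25 genes did not pass, beside 8.39% higher and 4.53% lower of all genes tested. Besides Slc4a4, its relative Slc4a7 (the electroneutral sodium bicarbonate cotransporter) fell, with 11.6 and 11.7 RPKM in shGlis3 libraries, against 16.3 and 16.1 RPKM in shControl libraries (log2 fold change -0.44, adjusted p = 0.00925). Its log2 fold change in shGlis3 against shCD133 colonies was -0.46 (adjusted p = 0.0173). Both sodium bicarbonate importers were thus lowest in shGlis3 libraries. Slc26a9, an apical chloride transporter, had 7.29 and 9.52 RPKM in shGlis3 libraries, against 4.75 and 4.56 RPKM in shControl libraries, and rose by 0.72 (adjusted p = 0.0164), and Ano9 rose by 0.59. The split was 2 rises and 5 falls with median centring, 0 and 0 without shControl library 1, 0 and 1 without shControl library 3, and 3 and 1 without shGlis3 library 3. In shGlis3 against shCD133 colonies 0 rose and 4 fell, beside 1.61% higher and 2.46% lower of all genes tested. The falls were Slc4a4, Slc4a7, Slc4a11 at -0.94 and Kcnn4, a calcium-activated potassium channel, at -0.55. Those 4 falls were 1 without either shControl library or without shGlis3 library 3, 0 without shCD133 library 1 and 2 without shCD133 library 3.

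**Figure D3:**
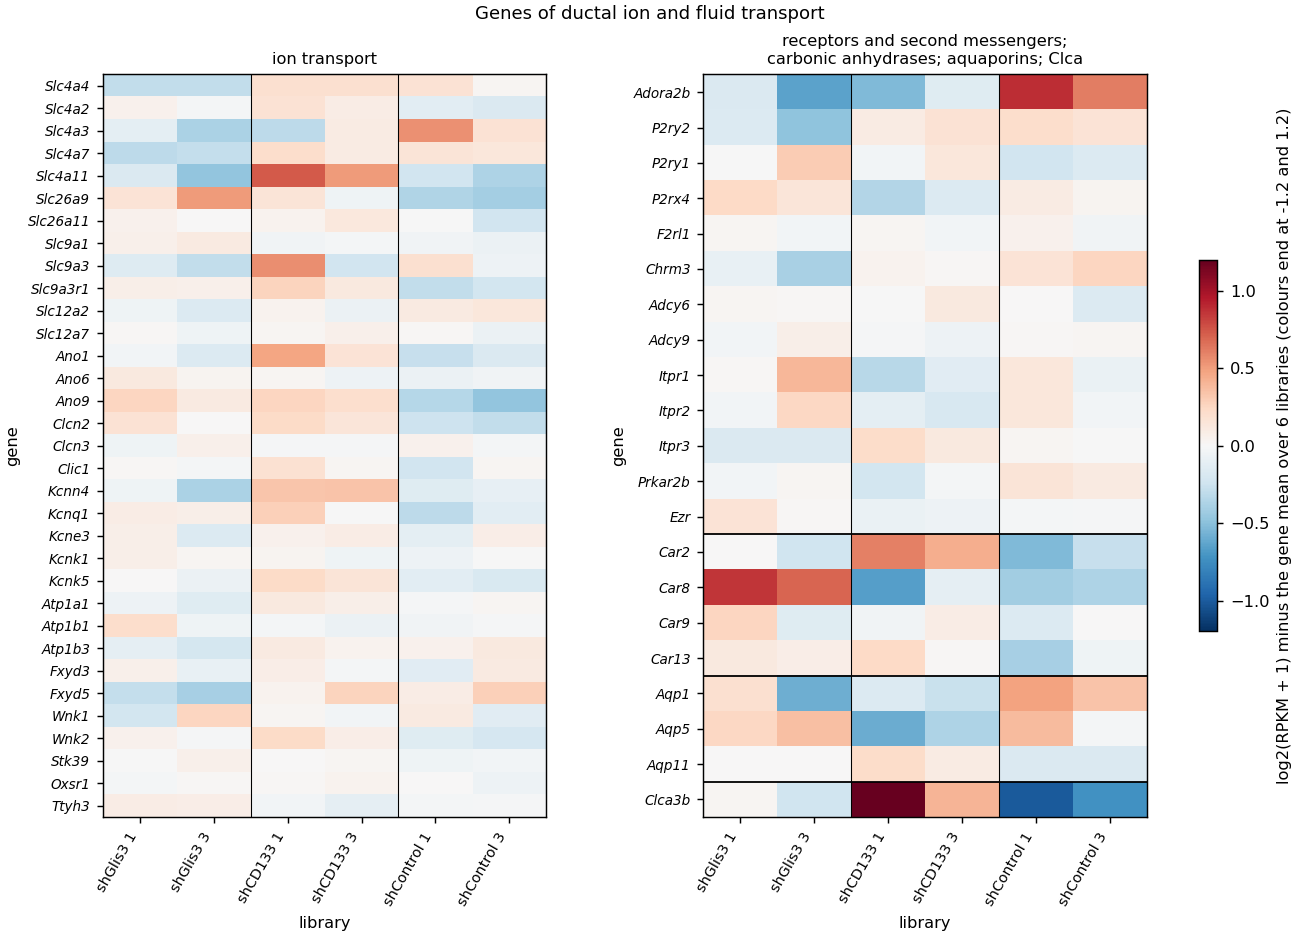
Log2(RPKM + 1) of each tested gene minus its mean over the 6 libraries, by library in the order shGlis3, shCD133, shControl, for ion transport genes (left) and for receptors, carbonic anhydrases, aquaporins and Clca3b (right, parted by lines). Slc4a4 and Slc4a7 are below their means in both shGlis3 libraries, and Car2, Clca3b and Slc4a11 are above theirs in both shCD133 libraries.

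Every receptor or second messenger gene that passed was lower in the first group of its comparison. For Adora2b the minimum level for testing in part set this direction. Of 16 receptor and second messenger genes, 13 were tested. In shGlis3 against shControl colonies 0 rose, 3 fell and 10 did not pass (median 0.001), beside 8.39% higher and 4.53% lower of all genes. In shCD133 against shControl colonies 0 rose, 1 fell and 12 did not pass (median -0.06), beside 8.16% higher and 3.64% lower. Adora2b, the adenosine receptor that raises cyclic AMP, had 1.14 and 0.55 RPKM in shGlis3 libraries and 0.67 and 1.19 RPKM in shCD133 libraries, against 3.46 and 2.69 RPKM in shControl libraries. It fell by 1.16 in shGlis3 (adjusted p = 0.017) and by 1.08 in shCD133 colonies (adjusted p = 0.0234). Its means of 0.845 RPKM in shGlis3 and 0.93 RPKM in shCD133 colonies lay under the minimum of 1 RPKM. Adora2b was thus tested only through the shControl libraries in which it is high, and its falls were in part a condition of being tested. These falls add nothing to the comparisons with the shares of all genes. P2ry2, the ATP and UTP receptor of duct cells, had 21.6 and 17.1 RPKM in shGlis3 libraries, against 28.4 and 27.4 RPKM in shControl libraries (log2 fold change -0.51, adjusted p = 0.0264), and Chrm3 (a muscarinic receptor) fell by 0.45. Itpr3 (an inositol trisphosphate receptor) fell by 0.35 in shGlis3 against shCD133 colonies, the 1 call of 13 there, where 2.46% of all genes fell. None of the 13 passed against shControl colonies when either shControl library was left out or, in shCD133 against shControl colonies, without shCD133 library 1. Without shGlis3 library 3, 2 fell in shGlis3 against shControl colonies, and 0 of the 13 passed in shGlis3 against shCD133 colonies without each library in turn other than shGlis3 library 1.

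The relatives of the members differed among themselves. Of 16 carbonic anhydrases 4 were tested. Car8, a relative without catalytic activity, had 29.8 and 26.5 RPKM in shGlis3 libraries, 9.75 and 14.8 RPKM in shCD133 libraries and 11.8 and 12.2 RPKM in shControl libraries. It rose by 1.17 in shGlis3 against shControl colonies (adjusted p = 0.0108) and by 1.16 in shGlis3 against shCD133 colonies (adjusted p = 0.022), where Car2 fell. Of 11 aquaporins 3 were tested. Aqp1, the water channel of small ducts, had 42.5 and 24.3 RPKM in shGlis3 libraries and 33.0 and 30.7 RPKM in shCD133 libraries, against 52.1 and 47.1 RPKM in shControl libraries. Its log2 fold changes of -0.61 (adjusted p = 0.123) and -0.62 (adjusted p = 0.116) did not pass. Clca3b was the 1 gene of 8 in its family with a value. Of 20 mucin and mucin glycosylation genes 4 were tested. In shGlis3 against shControl colonies there was 1 rise (Galnt12, by 0.32) and 1 fall (Cd164, by 0.35), beside 8.39% higher and 4.53% lower of all genes. In shCD133 against shControl colonies there was 1 rise (Galnt3, by 0.29) and 0 falls, beside 8.16% higher and 3.64% lower. Galnt3, a transferase that starts mucin-type glycans, stood at -0.40 in shGlis3 against shCD133 colonies (adjusted p = 0.024). Without shControl library 1 or 3 none of the carbonic anhydrases, aquaporins or mucin genes passed against shControl colonies.

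Among 14 genes for osteopontin, its receptors and its proteases, 9 were tested, Spp1 included. Itgb5, a partner of integrin alpha v, had 32.1 and 27.0 RPKM in shGlis3 libraries and 26.8 and 33.6 RPKM in shCD133 libraries, against 44.9 and 41.3 RPKM in shControl libraries. It fell in both (log2 fold changes of -0.53, adjusted p = 0.0382, and -0.51, adjusted p = 0.0451). Itgb6, another partner of integrin alpha v, had 35.7 and 29.2 RPKM in shCD133 libraries, against 21.5 and 23.1 RPKM in shControl libraries, and rose by 0.51 (adjusted p = 0.0241). Itga5 (integrin alpha 5) fell by 0.36 in shGlis3 against shControl colonies, and Itga5 and Itgb1 (integrin beta 1) fell by 0.44 and 0.29 in shGlis3 against shCD133 colonies. Of all genes tested, 8.39%, 8.16% and 1.61% rose and 4.53%, 3.64% and 2.46% fell in the comparisons in the order that follows. The list had 0 rises and 2 falls in shGlis3 against shControl (median -0.18) and 1 and 2 in shCD133 against shControl colonies (median 0.11). In shGlis3 against shCD133 colonies the list had 0 and 2 (median -0.25). None passed against shControl colonies without shControl library 1 or 3, in shGlis3 without library 3 or in shCD133 without library 1. Of 10 genes for clusterin, its receptors and other extracellular chaperones 8 were tested. Against shControl colonies there were 0 rises and 2 falls in shGlis3 (median -0.007) and 0 rises and 2 falls in shCD133 (median 0.03). The shares of all genes that fell there were 4.53% and 3.64%. Hp (haptoglobin) fell by 1.70 in shGlis3 and by 1.44 in shCD133, and Tgfbr1 (a TGF-beta receptor) by 0.56 and by 0.68, both against shControl colonies. Neither fall passed in either comparison without shControl library 1 or 3, or in shCD133 against shControl colonies without shCD133 library 1. Between shGlis3 and shCD133 colonies none passed, and Vldlr had the smallest p (log2 fold change 0.33, adjusted p = 0.103).

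Duct identity genes changed in both directions in CD133 knockdown, with a split that turned with the scaling. Of 24 tested, 5 rose, 3 fell and 16 did not pass in shCD133 against shControl colonies (median 0.099), beside 8.16% higher and 3.64% lower of all genes tested. Sox9, a duct and progenitor transcription factor, had 43.2 and 43.8 RPKM in shCD133 libraries, against 33.7 and 31.4 RPKM in shControl libraries (log2 fold change 0.41, adjusted p = 0.0151). The other 4 rises, named after their values were seen, were Krt19 by 0.66, Krt8 (a simple epithelial keratin) by 0.61, Cdh1 (E-cadherin) by 0.35 and Elf3 (an epithelial transcription factor) by 0.24. The falls were Prom1, the target of the pool, Spp1, and Bicc1 (an RNA-binding protein of tubular epithelia) by 0.42. The fall of Prom1 was set by the design and adds nothing to the comparison with the share of all genes. Spp1 is also counted among the members. Against shControl colonies, in shGlis3 colonies Elf3 rose by 0.37, Bicc1 fell by 0.48 and Lcn2 (lipocalin 2) by 0.997, while 21 did not pass (median 0.07). These 3 calls among 24 are near the 12.9% of all genes that passed there. Between the knockdowns, in shGlis3 against shCD133 colonies Prom1 was higher, which the design also set, and Sox9 lower, by 0.30. The other 22 did not pass (median -0.07), beside 1.61% higher and 2.46% lower of all genes tested. With median centring 2 rose and 3 fell in shCD133 against shControl colonies, 0 and 0 passed without shControl library 1 or 3, 0 and 1 without shCD133 library 1, and 2 and 2 without shCD133 library 3. Of the shGlis3 calls against shControl colonies 0 passed without shControl library 1 or 3, and 1 rose and 1 fell without shGlis3 library 3.

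**Figure D4:**
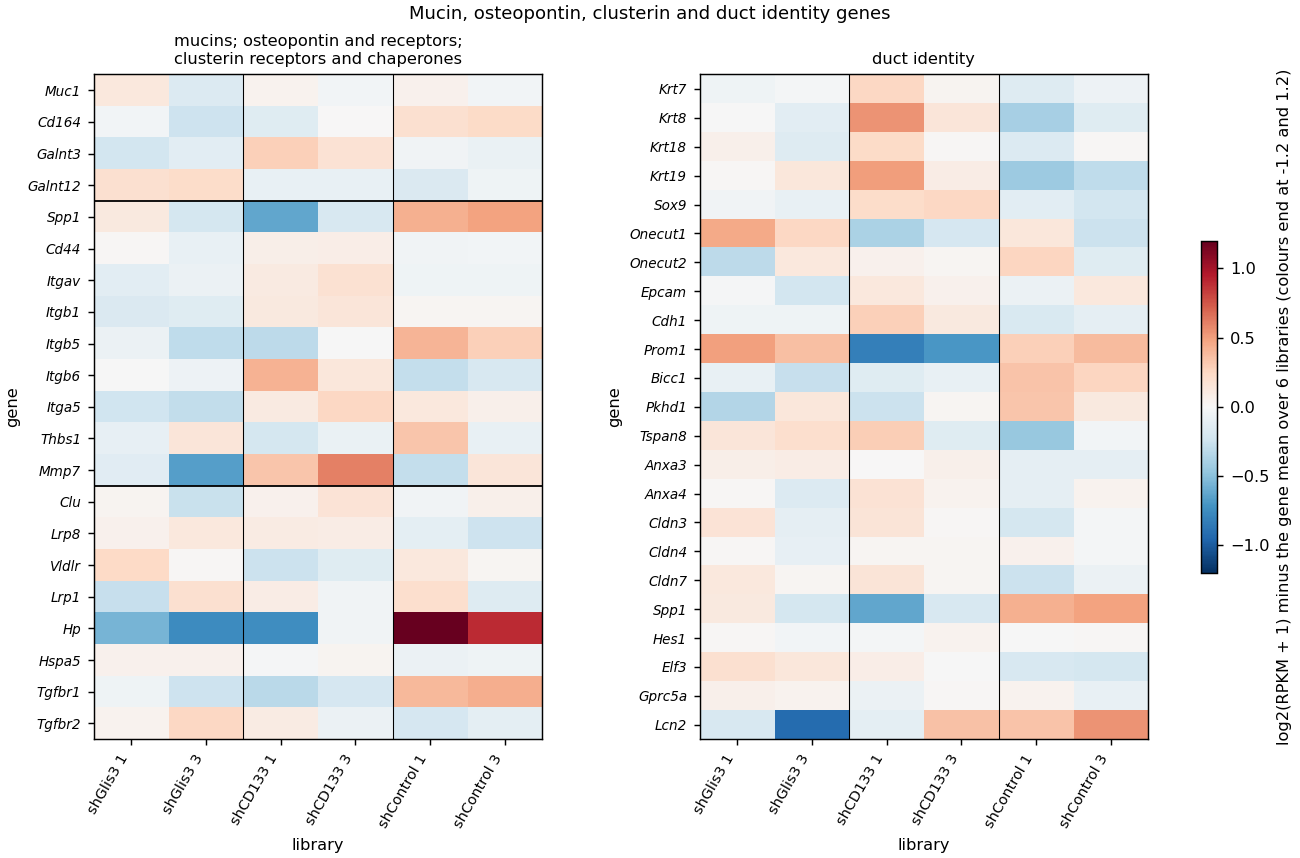
Log2(RPKM + 1) of each gene shown minus its mean over the 6 libraries, by library in the order shGlis3, shCD133, shControl, for mucin, osteopontin and clusterin genes (left, parted by lines) and duct identity genes (right). Spp1 is above its mean in both shControl libraries, at 6490 and 6733 RPKM, and Krt19 and Sox9 are above theirs in both shCD133 libraries.

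Over these lists without the 7 members, 91 genes were tested. In shGlis3 against shControl colonies 7 rose and 13 fell, and in shCD133 against shControl colonies 16 rose and 6 fell. Over all genes 909 rose and 491 fell in the first comparison (8.39% and 4.53%). In the second 884 rose and 394 fell (8.16% and 3.64%). These splits depend on the scaling. With each library centred on its median, the lists gave 5 rises and 16 falls and 9 and 7, and all genes gave 576 rises and 712 falls and 559 and 612. Between shGlis3 and shCD133 colonies the lists gave 2 rises and 8 falls, beside 174 and 266 over all genes (1.61% and 2.46%). Prom1, the target of the shCD133 pool, is among these 2 rises and among the 6 falls in shCD133 against shControl colonies. Its calls were set by the design.

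The genes whose levels over the 6 libraries were most like each member are given as a description, since the libraries fall into 3 groups and many genes share such a pattern. For Car2 they were Igsf11 (Pearson r = 0.995) and Snai3 (0.991), out of 1948 genes that spanned at least 0.5 on the log2 scale, 58 of which exceeded 0.95. Igsf11, an adhesion molecule, had 9.93 and 9.03 RPKM in shCD133, 7.78 and 6.58 RPKM in shGlis3 and 5.58 and 6.38 RPKM in shControl libraries. For Slc4a4 they were Shank2, a scaffold protein, and Otop3, a proton channel (r = 0.988 and 0.979). Shank2 had 1.26 and 1.18 RPKM in shGlis3, 3.56 and 3.58 RPKM in shCD133 and 3.58 and 3.08 RPKM in shControl libraries. For Aqp5 they were Nhsl1 and the transcription factor gene Klf2 (0.994 each), and for Clca3b Itgb6 (0.999) and Tfcp2l1 (0.993), another transcription factor gene. For Spp1 they were Acat3 (0.994) and Fgd3 (0.992), and for Clu Ptprn (0.965) and Shc2 (0.957). Muc1, which spanned 0.29 in all, had none above 0.95, with Eno3 at 0.798 and Ambp at 0.791.

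**Figure D5:**
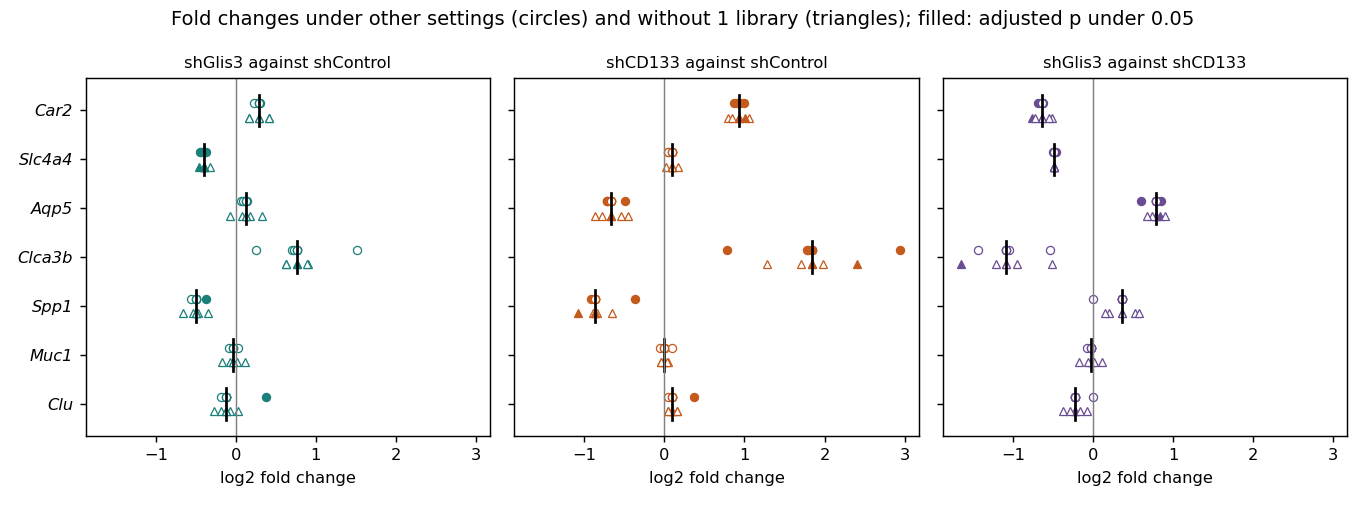
Log2 fold change (horizontal axis) of each member under the other settings (circles) and without each library in turn (triangles), filled where the adjusted p was under 0.05, with a black bar at the value given in the text. The values of Car2 lie between 0.80 and 1.05 in shCD133 against shControl colonies, and those of Clca3b spread widest, between 0.79 and 2.95.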

How the data were processed

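Poly(A) stranded libraries of 6 colony samples were analysed from 1 table. The authors deposited RPKM values with 2 decimals for 11164 genes, each of which reaches at least 1 RPKM in some library. HTSeq, TopHat2, bcl2fastq 2.18.0.12 and the build mm10 are listed, without settings, in the submitters' processing notes. Which annotation was counted and whether strand was used the sources used here do not state. Columns were matched to samples by the name in each sample's description.

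The scale was log2(RPKM + 1), and 10829 genes whose mean reached 1 RPKM were tested, the 7 members included. limma 3.58.1 (R 4.3.3) estimated 3 group means with moderated variances and a trend (3 residual and 3.69 prior degrees of freedom), and two-sided p-values received Benjamini-Hochberg adjustment across every tested gene. Fold changes on this scale understate those of low genes.

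Depth was estimated from values below 3 RPKM of genes with 1 transcript shorter than 1200 bases in GENCODE M21 (GRCm38, which is mm10). At the best depth of each library, 56.8% to 62.6% of 91 to 103 values were within 0.15 of a whole read. By accident 30% would be at a fixed depth. Each depth was picked for the highest such share, so accident would give more than 30% here, by an amount not estimated. Whole reads were not recovered, so no count test was run. Promoter sequences are RefSeq's (GRCm38.p6); bases annotated as exon in GENCODE were left out.

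The members and lists were chosen with earlier results of these data known. Named are the members, Glis3 and Prom1, up to 4 called genes per list and comparison by smallest p (or 1 where none was called), and the 2 genes most like each member. The alternatives were pseudocounts of 0.1 and 5, no minimum and a minimum of 5 RPKM, median centring, quantile normalization, no variance trend, a fit of only the 2 groups compared, the replicate number as a block, and each library left out. Counts over the duct identity list include 1 gene that is not reported here by name or drawn.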

Additional observations from a re-analysis of the deposited data

How the results depend on the processing

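With 2 libraries per group, counts of genes past the threshold moved widely when 1 was left out, and depth limits chiefly Clca3b, at about 30 and 60 reads in shControl libraries. The number of genes past the threshold in shGlis3 against shControl colonies, 1400 in the text, was 913 at a minimum mean of 5 RPKM and 608 with the replicate block, and 21 to 1334 with 1 library left out. In shCD133 against shControl colonies (1278) it was 335 with the block and 0 to 1657 with 1 library left out. In shGlis3 against shCD133 colonies (440) it was 58 with only the 2 groups compared, 79 with the block and 25 to 743 with 1 library left out. Members past the threshold in shGlis3 against shControl colonies (1) numbered 3 with quantile normalization, 2 with only the 2 groups compared, where Clca3b was added, and 0 to 2 with 1 library left out. In shCD133 against shControl colonies (4) they numbered 2 with the block, which lost Aqp5 (adjusted p = 0.0695) and Spp1 (adjusted p = 0.0665), and 0 to 4. In shGlis3 against shCD133 colonies (3) they numbered 1 with only the 2 groups compared, 0 with the block, where 4 had an unadjusted limma p under 0.05, and 0 to 3. Genes of the wider lists (20, 22 and 10) numbered 13 at a minimum of 5 RPKM and 9 with the block in the first comparison, 9 with the block in the second, and 1 with only the 2 groups compared and 2 with the block in the third. With 1 library left out they numbered 0 to 22, 0 to 26 and 1 to 13. Blocked fits spend a degree of freedom, and libraries share only a number here. Between groups, deviations from the group means correlated, for libraries of the same number, at -0.372 (shGlis3 and shControl), -0.428 (shCD133 and shControl) and 0.0322 (shGlis3 and shCD133).

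Quantile normalization cannot be used for Spp1 and Clu. As the 2 most abundant genes of every library, they are each given 1 of 2 fixed values, so Clu came out at 0.37 in shGlis3 against shControl colonies, in place of -0.13, and Spp1 at -0.37. Clca3b moved with the pseudocount, at 2.95 with 0.1 and 0.79 with 5 in shCD133 against shControl colonies, and had no value at a minimum of 5 RPKM. Of 1602 recomputed values of single named genes, 1345 kept their direction and side of the threshold or passed in neither fit, 232 no longer passed, 24 newly passed and 1, that of Clu, was reversed.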
